A study of Rattus norvegicus with 50 samples.

Results

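The comparison described here sets 5 libraries from the medial prefrontal cortex of serotonin transporter knockout rats against 5 from wild-type rats, all Wistar and all taken at postnatal day 8. These are 10 of the 50 libraries of a series that also sampled both genotypes at days 14, 21, 35 and 70. They were chosen by genotype and age alone, as the column headers and sample titles give them. The groups differ in the transporter genotype and share strain, age and tissue. The labels give neither the sex of the animals nor whether each library came from its own rat, so each p-value speaks only of the scatter among libraries, part of which may be technical. Each title carries a pair of numbers, 28-1, 29-4, 29-5, 30-1 and 30-5 for the knockout and 25-2, 25-3, 26-1, 27-2 and 27-4 for the wild-type libraries. The first number never occurs in both genotypes and its meaning is not given, so whatever it marks and the genotype cannot be told apart.

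The serotonin transporter is the membrane protein that takes released serotonin back into the cell and so ends its action. In rodents the first postnatal weeks are the time when serotonin axons grow into the prefrontal cortex and when some cortical and thalamic neurons, which make no serotonin themselves, carry the transporter for a short period. The cortex at day 8 is immature, and synapse formation and myelination lie largely ahead. The design asks at which ages the absence of the transporter goes with another pattern of expression. Expression was measured in FPKM, fragments counted per length of transcript and per size of the library, for 29516 Ensembl identifiers, and 14779 of them, whose mean over all 50 libraries reached 0.5 FPKM, were tested. The identifiers could not be paired with gene symbols here, so the transporter gene, the marker genes of the tissue and any named pathway were not analysed, and genes are given by identifier. In bulk tissue, fewer cells of a type and less RNA per cell cannot be told apart.

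Library 30-5 of the knockout group stood apart before any comparison of genotypes. Its mean correlation with the other libraries of its group was 0.928, against 0.958 to 0.964 for the other 4 knockout libraries and 0.958 to 0.975 in the wild-type group. It differed from the wild-type mean by more than 1 log2 unit in 8.65% of the genes, against 1.49% to 3.48% in the other knockout libraries. For wild-type libraries, each set against the mean of the others, this share ran from 1.45% (25-2) to 4.55% (25-3). Read depth, known only relative to the median of the 50 libraries, lay between 0.744 (library 30-5) and 1.25 (library 29-4). The knockout libraries varied more than the wild-type ones, with a median SD per gene of 0.23 log2 units against 0.15, and a range of 0.14 to 0.23 over the 10 groups of the series.

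The knockout libraries of day 8 had 15 genes with higher and 21 with lower expression at an adjusted p under 0.05 (limma, Benjamini-Hochberg adjustment over all 14779 genes). These are 0.101% and 0.142% of the genes tested. Without adjustment 620 genes (4.20%) were higher and 757 (5.12%) lower at p under 0.05. The higher genes differed by a median of 0.68 log2 units, from 0.41 to 1.22, and the lower genes by a median of -0.49, from -0.30 to -1.05, where the median absolute difference of all genes was 0.11. Most were of low to middling abundance. Of the 15 higher genes 2 had a mean under 1 FPKM over the 10 libraries, 8 lay between 1 and 5 FPKM and 5 between 5 and 20. Of the 21 lower genes 11 lay between 1 and 5 FPKM, 8 between 5 and 20 and 2 above 20. Differences beyond 2-fold on the scale of log2(FPKM + 0.5), which understates those of low genes, were found in 3 of the higher genes and 1 of the lower. When the 10 libraries of day 8 were fitted without the other ages, 0 genes passed in limma. Of the 14779 genes 858 had an unadjusted limma p under 0.05, not far above the share of 0.05 expected with no difference. With the deposited values left unscaled, which moved the median difference of all genes from -0.01 to -0.11 log2 units, 2 genes were higher and 17 lower.

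The lower genes differed in more of the knockout libraries than the higher ones. Every knockout library lay below every wild-type library in 11 of the 21 lower genes, and every one above in 2 of the 15 higher genes. Among all genes tested, 0.548% had every knockout library below and 0.304% every one above. In the remaining 10 lower genes, 4 of the 5 knockout libraries lay below all wild-type libraries. Of the remaining higher genes, 9 had 4 knockout libraries above all wild-type libraries and 4 had 3.

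ENSRNOG00000002916 was the most firmly lowered gene. Its rescaled FPKM was 1.18 in knockout library 28-1, 1.05 in 29-4, 1.55 in 29-5, 1.30 in 30-1 and 1.34 in 30-5. The wild-type values were 2.80 in library 25-2, 2.26 in 25-3, 4.21 in 26-1, 2.77 in 27-2 and 2.81 in 27-4. All 5 knockout libraries were therefore low, with 28-1 and 30-5 among the rest. The means were 1.28 ± 0.187 and 2.97 ± 0.731 (SD, n = 5 each). On the log2 scale the difference came to -0.94 ± 0.12 (SE; adjusted p = 1.35e-05 in limma). The difference kept an adjusted p under 0.05 in 20 of 21 alternative analyses, and in the fit of day 8 alone it was 0.275 in limma.

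ENSRNOG00000017679 was lower as well, at 2.66 FPKM in knockout library 28-1, 1.15 in 29-4, 1.36 in 29-5, 2.01 in 30-1 and 1.82 in 30-5. The wild-type libraries stood at 3.61 in 25-2, 2.88 in 25-3, 5.17 in 26-1, 2.85 in 27-2 and 3.01 in 27-4. The groups did not overlap, but knockout library 28-1, at 2.66, came close to the lowest wild-type library, at 2.85. Its log2 difference was -0.81 ± 0.15 (SE; limma adjusted p = 0.00509). The call was lost in 4 of 21 alternatives. The limma adjusted p was 0.771 with day 8 alone, 0.387 with libraries averaged by the first title number, 0.0754 without knockout library 29-4 and 0.0621 without wild-type library 26-1.

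The 2 higher genes without overlap showed smaller differences. ENSRNOG00000031222 stood at 2.33, 2.47, 2.60, 2.32 and 1.98 FPKM in knockout libraries 28-1, 29-4, 29-5, 30-1 and 30-5, and between 1.26 and 1.51 FPKM in the wild-type libraries. Its 5 knockout values were close together, with library 28-1 in the middle of them. Its log2 difference was 0.55 ± 0.12 (SE; limma adjusted p = 0.0360). ENSRNOG00000014550 stood at 10.7, 14.0, 12.0, 10.4 and 13.0 FPKM in the same order, and between 8.28 and 9.54 FPKM in the wild-type libraries (log2 difference 0.41 ± 0.09 SE, limma adjusted p = 0.0367). Here library 30-1 was the lowest of the knockout libraries and 29-4 the highest. These calls were less firm: the first was lost in 13 of 21 alternatives and the second in 14, with limma adjusted p up to 0.387 and 0.789. Leaving out any one of knockout libraries 29-4, 29-5 and 30-1, or any one of the wild-type libraries, ended both calls.

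**Figure D1:**
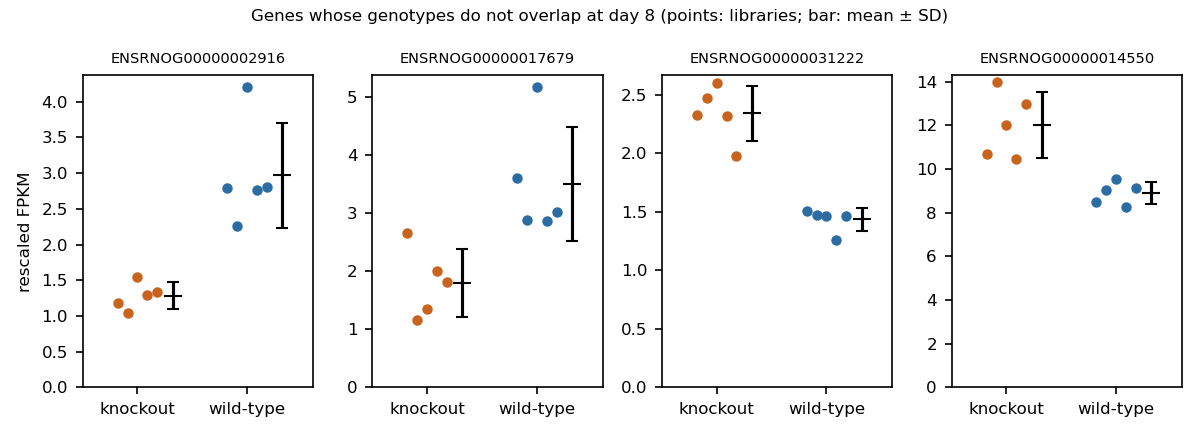
Rescaled FPKM of the 4 named genes at day 8, with 1 point per library in title order and the mean ± SD beside each group (n = 5). In ENSRNOG00000002916 the knockout libraries sit between 1.05 and 1.55 and the wild-type ones between 2.26 and 4.21, and in all 4 genes the groups do not overlap.

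Among the called genes, the one with the greatest rise on the scale of log2(FPKM + 0.5) had another shape. In it, knockout libraries 29-4, 29-5 and 30-1 stood at 10.7, 6.68 and 6.78 FPKM, while 28-1 and 30-5 stood at 1.80 and 2.20, within the wild-type range of 0.998 to 2.61. The knockout mean was 5.63 ± 3.68 FPKM and the wild-type mean 1.77 ± 0.579 (SD, n = 5 each), and the difference came to 1.22 ± 0.26 log2 units (SE; adjusted p = 0.0233 in limma). Library 28-1 and library 30-5 thus took no part in the highest of these values. Unless a fit of day 8 alone is named, every SE of a difference given here draws on the spread within all 10 groups of the series. Over the 15 higher genes the median SD at day 8 was 0.46 log2 units in knockout and 0.13 in wild-type libraries. For such genes the SE can understate the scatter among the day 8 knockout libraries. This was not confined to the higher genes. In the fit of day 8 alone the SE was 0.20 instead of 0.15 for ENSRNOG00000017679 and 0.14 instead of 0.12 for ENSRNOG00000002916. It was 0.09 instead of 0.12 for ENSRNOG00000031222 and 0.09 in both fits for ENSRNOG00000014550.

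Over the 15 higher genes the medians were greatest in the same 3 libraries. Measured from the wild-type mean, the median of these genes was 1.18 log2 units in library 29-4, 1.00 in 30-1 and 0.95 in 29-5, but 0.33 in 30-5 and 0.11 in 28-1. The wild-type libraries ran from -0.08 to 0.09. All 15 genes lay above every wild-type library in 29-4, 29-5 and 30-1, and 9 did so in 30-5 and 4 in 28-1. The 21 lower genes were spread more evenly, with medians of -0.65 in library 29-4, -0.58 in 30-5, -0.56 in 30-1, -0.50 in 29-5 and -0.30 in 28-1, against -0.10 to 0.19 in the wild-type libraries. All 21 lay below every wild-type library in 29-4, 29-5 and 30-1, 17 did so in 30-5 and 15 in 28-1. These genes were called on these libraries, so the medians describe the calls and do not test them. Libraries 30-1 and 30-5, which share the first title number, differed in the median of the higher genes (1.00 and 0.33) and were close in that of the lower genes (-0.56 and -0.58). For 29-4 and 29-5, which share another, the medians were 1.18 and 0.95, and -0.65 and -0.50.

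**Figure D2:**
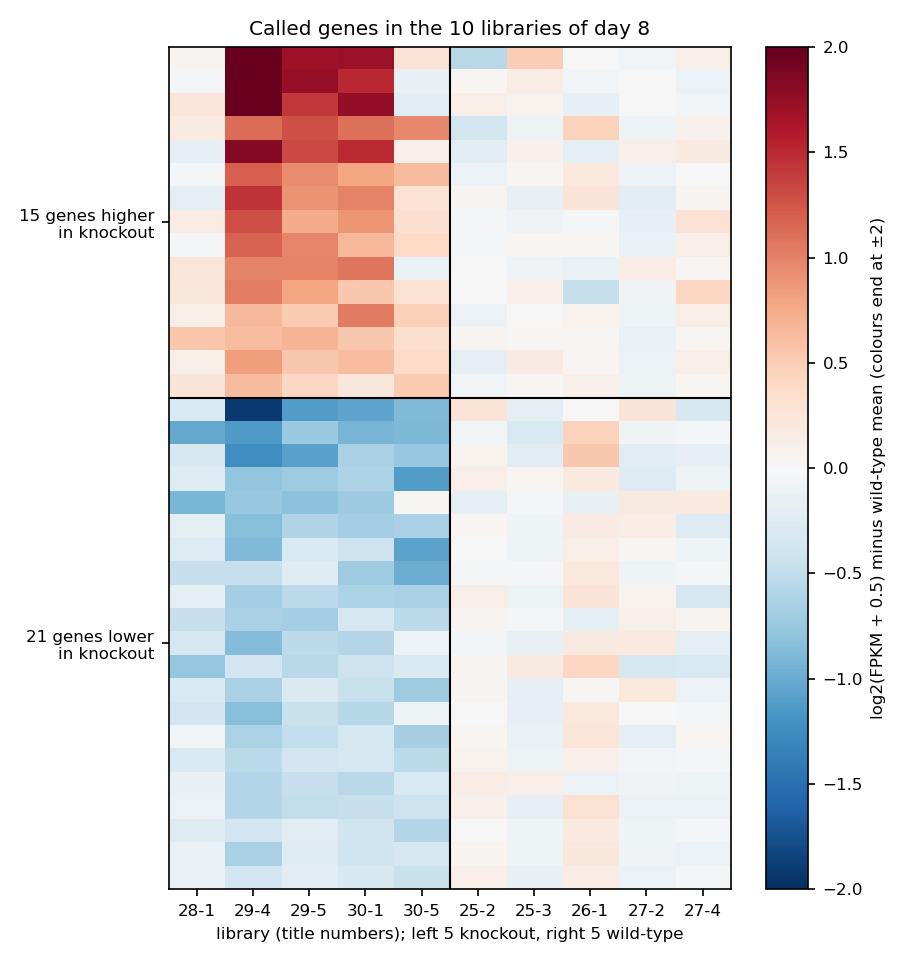
Each row is 1 of the 36 genes called at day 8 and each column a library; colour is log2(FPKM + 0.5) minus the wild-type mean. Over the 15 higher genes the medians are greatest in libraries 29-4, 29-5 and 30-1 (0.95 to 1.18) and least in 28-1 (0.11), though single genes depart from this order, whereas the 21 lower genes are low in 4 or 5 knockout libraries.

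A count over all 14779 genes, made without reference to the calls, set the same 3 libraries apart above the wild-type range. With a margin of 1.5-fold it did not do so below that range. Without a margin they were among the sets of 3 with the most genes on both sides. For each gene, the knockout libraries that lay more than 1.5-fold above the highest wild-type library were noted, on the scale of FPKM + 0.5. Exactly 3 knockout libraries did so in 19 genes, and in 17 of these they were 29-4, 29-5 and 30-1; the 9 other sets of 3 gave at most 2 genes each. Of these 17 genes 7 were among the 15 called, and 10 were not called. Below the wild-type range, 19 genes had exactly 3 such knockout libraries, with at most 3 genes for any one set. With the genotypes exchanged, exactly 3 wild-type libraries lay beyond all knockout libraries by that margin in 7 genes above and 2 below. The knockout libraries, 30-5 among them, span the wider range. Wild-type libraries fall outside it less readily, so the exchanged count is not a like comparison. Many more genes had a single library out of range, and library 30-5 alone lay that far above in 319 genes and below in 1251. Wild-type library 25-3 alone lay that far above all knockout libraries in 399 genes and below in 25. Without the margin, libraries 29-4, 29-5 and 30-1 alone lay above all wild-type libraries in 300 genes, and the other sets of 3 did in 31 to 222. Library 30-5 joined these 3 in a further 327 genes. Below all wild-type libraries, the 3 alone lay in 261 genes, and libraries 29-4, 30-1 and 30-5 alone in 265. The remaining sets of 3 did so in 36 to 231 genes, and libraries 29-4, 29-5, 30-1 and 30-5 together in 362.

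Leaving out 1 library at a time moved the counts in both directions. Without knockout library 28-1, 80 genes were higher and 81 lower, among them all 36 genes called with all 10 libraries. Without 30-5, 41 were higher and 30 lower, including 14 of the 15 and 15 of the 21. Without 29-4, 0 genes were higher and 1 lower in limma, although 1312 genes had an unadjusted p under 0.05. That one gene was ENSRNOG00000002916. Without 29-5 the counts were 2 and 13, and without 30-1 they were 2 and 6. Among the wild-type libraries, leaving out 25-2 or 26-1 gave 2 higher and 4 lower genes each, and leaving out 27-4 gave 8 and 13.

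**Figure D3:**
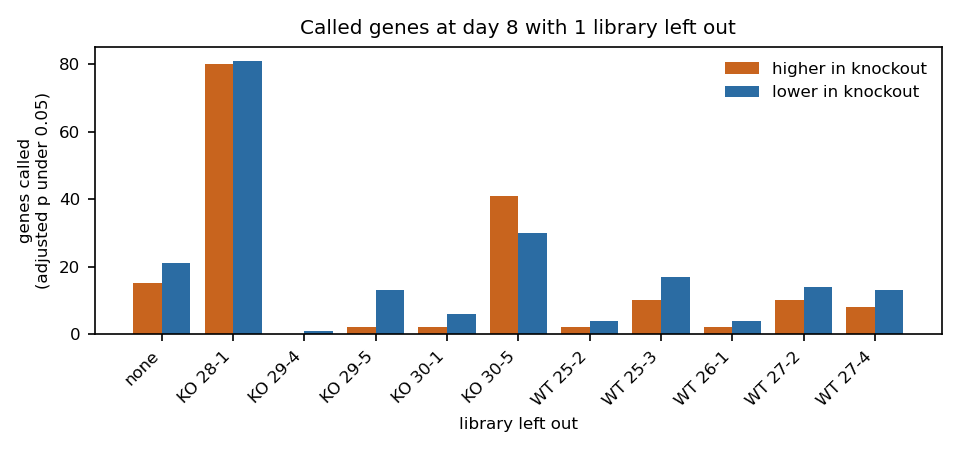
Genes called higher (orange) and lower (blue) in knockout at day 8 with all 10 libraries ("none") and with each library left out in turn; KO marks knockout and WT wild-type libraries. The counts are greatest without library 28-1 (80 and 81) and least without 29-4 (0 and 1).

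The library left out takes no part in choosing the genes, so its own values can be set against those calls. In library 28-1, 38 of the 80 genes called higher without it lay above the wild-type mean, with a median of -0.02 log2 units, where the fit of the other libraries gave a median of 0.58. Over all genes 47.2% lay above in this library, so the 80 genes did not stand out there. Of the 81 lower genes 51 lay below, a larger share than among all genes, of which 47.2% lay above. Their median was -0.07 against -0.52 in the fit. Library 30-5 behaved alike for the higher genes, with 20 of 41 above the wild-type mean and a median of -0.01 against 0.76, where 52.5% of all genes lay above. Of the 30 genes called lower without it 21 lay below, again a larger share than among all genes, of which 52.5% lay above. Their median was -0.13 against -0.51. In both left-out libraries the lower genes thus leaned toward the call, by less than in the fit, and the higher genes did not. The wild-type mean enters both the calls and these values, which pulls them toward the same sign.

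Libraries 29-5 and 30-1 went with the calls made without them, although few genes were called then; without 29-4 no gene was called higher, so its own values could not be set against such calls. The 2 higher and 13 lower genes called without 29-5 all lay on the same side in it, with medians of 0.85 and -0.39. The 2 higher and 6 lower genes called without 30-1 did so too, with medians of 0.83 and -0.55. The genes called without 28-1 and those called without 30-5 had much in common: 34 higher genes were in both lists, 42.5% of the first and 82.9% of the second, and 21 lower genes, 25.9% and 70.0%. The 81 genes called lower without 28-1 had their lowest median in library 30-5 (-0.61), while the 80 called higher had medians of 0.70, 0.55 and 0.58 in 29-4, 29-5 and 30-1 and 0.32 in 30-5.

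**Figure D4:**
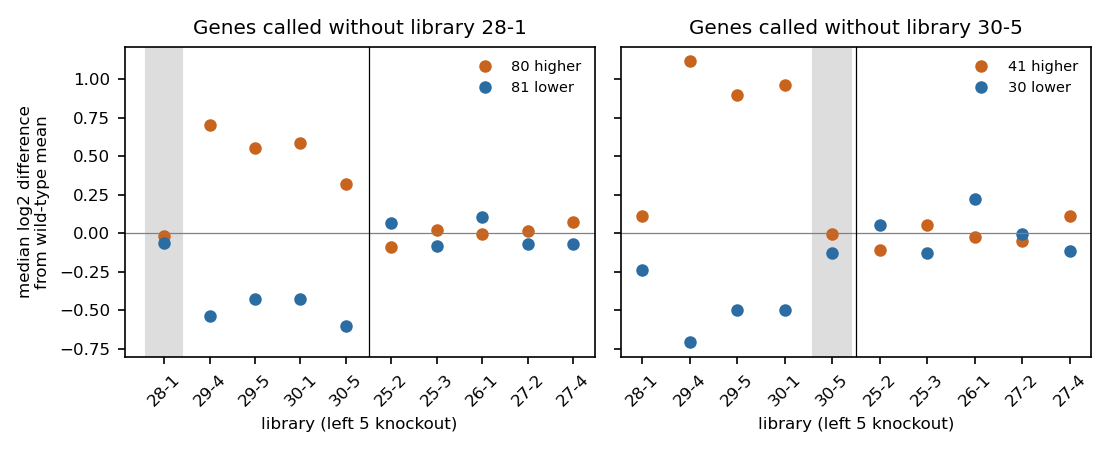
Median difference from the wild-type mean, in log2 units, over the genes called when library 28-1 (left panel) or 30-5 (right panel) was left out; each point is a library, orange for the genes called higher and blue for those called lower, and the grey band marks the library left out. The left-out library lies near 0 for the higher genes in both panels (-0.02 and -0.01).

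Library measures moved with this pattern in part. The deposited FPKM summed to 745627, 737848 and 546078 in libraries 29-4, 29-5 and 30-1, and 1208154 and 898525 in 28-1 and 30-5; the part of this in the result was not tested. Wild-type totals ran from 687256 in library 26-1 to 1649378 in 25-3. Wild-type libraries 26-1, 27-2, 27-4, 25-2 and 25-3 are in order of rising total. Their medians over the 15 higher genes were 0.02, -0.08, 0.09, -0.03 and 0.03 log2 units. Being taken from the wild-type mean, these medians show only how the wild-type libraries differ among themselves. A link to the totals was not tested. Relative depth was 1.25, 0.830 and 1.20 in libraries 29-4, 29-5 and 30-1, and 0.789 and 0.744 in 28-1 and 30-5. None of the 36 called genes was listed at 0 in any of the 10 libraries.

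The called genes were then followed in the 40 libraries of the later ages, whose values do not enter the difference at day 8. They do enter the scaling, the filter and the estimate of the spread behind the calls. With day 8 fitted alone 0 genes were called (858 of 14779 at an unadjusted p under 0.05 in limma). Of the 15 genes higher at day 8, the knockout mean was the higher one in 8, 6, 11 and 9 genes at days 14, 21, 35 and 70, and 0 of them had an unadjusted p under 0.05 in limma in either direction at any of these ages. Their median difference was 0.01, 0.00, 0.07 and 0.05 log2 units, against 0.68 at day 8. Of the 21 lower genes, 9, 12, 4 and 14 had a higher knockout mean at these ages, with medians of -0.01, 0.05, -0.08 and 0.01 against -0.49 at day 8. At day 14, 4 of the 21 were lower at an unadjusted p under 0.05 and 0 higher, where 2.38% of all genes passed in either direction. The one that also passed the adjustment was ENSRNOG00000002916. At days 21, 35 and 70, 2, 2 and 1 of the 21 were lower and 1, 0 and 2 higher at that level, where 2.95%, 2.55% and 2.40% of all genes passed. These counts share genes, so some of the 21 were lower at that level at more than 1 later age.

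**Figure D5:**
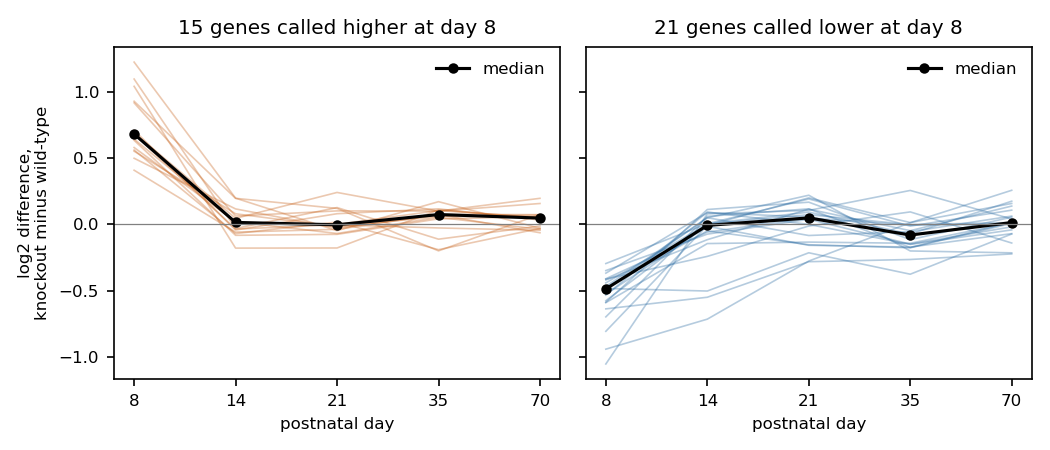
Difference between knockout and wild-type means (log2 units) at each age for the genes called higher (left) and lower (right) at day 8, with 1 thin line per gene and the median in black. The medians are 0.68 and -0.49 at day 8, where the genes were chosen, and lie between -0.08 and 0.07 at later ages.

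Whether the day 8 difference departed from the later ages was tested as the day 8 difference minus the mean of the differences at the 4 later ages. A gene can pass this test while it differs alike at a single later age. The test called 10 genes (0.0677% of 14779; limma adjusted p under 0.05), 4 with a greater and 6 with a smaller value at day 8, and 1193 genes had an unadjusted p under 0.05. Among the 36 genes called at day 8, 2 of the 15 higher and 5 of the 21 lower passed. For the other 29, a difference between day 8 and later ages was not established at this level, although 15 of 15 and 19 of 21 had an unadjusted p under 0.05 in this test. Those genes were chosen for their day 8 values, so these shares do not support the test. Both named lower genes passed. ENSRNOG00000017679 had a departure of -0.90 ± 0.16 log2 units (SE; limma adjusted p = 0.0110), and its later means were 10.3 ± 1.34 FPKM in knockout and 10.4 ± 1.70 in wild-type libraries at day 14, and 7.87 ± 1.10 and 6.99 ± 0.879 at day 70 (SD, n = 5 each). ENSRNOG00000002916 had a departure of -0.76 ± 0.13 (SE; limma adjusted p = 0.00918), and its differences from day 14 to day 70 were -0.72, -0.28, 0.01 and 0.26. At day 14 this gene was lower as well (limma adjusted p = 0.00690), so its departure does not set day 8 apart from day 14. The higher genes ENSRNOG00000031222 and ENSRNOG00000014550 did not pass, with limma adjusted p of 0.220 and 0.0974.

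Most of the lower genes stood higher at day 14 than at day 8 in both genotypes. The wild-type mean at day 14 was above that at day 8 in 19 of the 21, with a median step of 0.69 log2 units, and the knockout mean in 20 of 21, with a median step of 1.23. Of all genes 47.4% had the higher wild-type mean at day 14 and 49.9% the higher knockout mean, with median steps of -0.02 and 0.00. Among the 15 higher genes 6 had the higher mean at day 14 in wild-type and 1 in knockout libraries, with median steps of -0.08 and -0.70. The day 8 libraries enter both the calls and these steps, so the steps are a description with no test. Between days 14 and 70, which share no library with the day 8 comparison, 8 of the 21 lower genes rose and 10 fell in wild-type cortex at a limma adjusted p under 0.05, where 18.7% of all genes rose and 18.7% fell. Both sets of calls use one estimate of each gene's spread, so genes of small spread are favoured in both. Of the 15 higher genes 4 rose, 2 fell and 9 did not pass.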

How the data were processed

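The authors deposited FPKM values, per the labels, in 1 table for each genotype with the same identifiers. Per the labels' protocols, rRNA-depleted total RNA was sequenced as 50 bp single-end reads and aligned to rn4 with gsnap. BWA 0.6.1, Cufflinks and bedtools appear in the submitters' processing notes; which aligner made the tables and the annotation release are not given in the sources used here. No strand protocol is stated, so overlapping genes may share reads. The labels also say that the wild-type libraries are held under other records as well.

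All 50 columns were matched to samples by title, and 0 were left over. A scale factor per library, the median of its ratios to the geometric means of the 15296 rows above 0 in all 50 libraries, was divided out (factors of 0.887 to 1.13 at day 8). Genes whose mean reached 0.5 FPKM were tested as log2(FPKM + 0.5) in R 4.3.3 with limma 3.58.1 (trend, robust), with all 10 groups of genotype and age in one fit and 40 residual degrees of freedom. Fold changes on this scale understate those of low genes. Adjustment was by Benjamini-Hochberg, with calls at 0.05. Leaving out a library kept the scaling and filter of all 50. Of 5156 rows whose day 8 median reached 10 FPKM, 15 were listed at 0 in a library, which can be a failed estimate. Relative depth came from the value of 1 read in 4202 rows above 0 in 3 to 25 libraries, where 97.8% of ratios between libraries matched a quotient of small integers to within 0.02 log2 units. The test was checked on simulated data in which each gene had the same spread in all groups. The wider spread of the day 8 knockout libraries and an outlying library were not simulated.

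The rule named the genes with the largest difference among called genes whose genotypes did not overlap, at most 2 per direction; the called gene with the largest rise on the log2(FPKM + 0.5) scale was described after its values were seen. The gene symbol lists drawn up for this comparison were not used, since the reference table held 0 Ensembl rat gene identifiers. The comparison and its alternatives were chosen with earlier results of these data known. The alternatives were the samples fitted, scaling, pseudocount, filter, library weights, the first title number, libraries that stand apart and each library left out. Figures used Python 3.11.15 and matplotlib 3.10.9.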

Additional observations from a re-analysis of the deposited data

Results flagged for a closer look

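Knockout library 30-5 lay far from the other 4 of its group, with a mean correlation of 0.928 and 8.65% of genes more than 1 log2 unit from the wild-type mean. Wild-type library 26-1 lay far above the other wild-type libraries in ENSRNOG00000002916, at 4.21 FPKM, and wild-type library 27-2 far below them in ENSRNOG00000031222, at 1.26 FPKM. A gap of this size arises by chance in about 1 in 20 groups, and 22 groups of 5 were examined. The knockout difference at day 8 departed from the mean of the later ages by -0.76 log2 units in ENSRNOG00000002916 and by -0.90 in ENSRNOG00000017679. In ENSRNOG00000002916 the day 14 difference was -0.72 as well.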

How the results depend on the processing

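The counts of 15 higher and 21 lower genes and of 10 genes departing from the later ages moved by over 1.5 times under many of the alternatives, and the causes were not tested. Higher genes numbered 0 with day 8 alone (858 genes at an unadjusted p under 0.05 in limma), 2 with values as deposited, 46 with no filter (25081 genes tested), 7 with a mean of at least 2 FPKM, 111 with array weights, 8 with a random effect for the first title number, 0 with libraries averaged by it (660 unadjusted) and 49 without the 3 libraries of the series that stand apart. The unadjusted counts of 858 and 660, of 14779 genes each, lay near the share of 0.05 expected with no difference. Lower genes numbered 0 with day 8 alone, 111 with array weights, 1 with libraries averaged and 34 without the libraries that stand apart. Genes departing from the later ages numbered 3 as deposited, 26 with no filter, 154 with array weights, 6 with the random effect, 0 with libraries averaged and 31 without the libraries that stand apart. Leaving out 1 library gave 0 to 80 higher, 1 to 81 lower and 0 to 74 departing genes. The least in each case was without 29-4 and the most without 28-1, and the weight that array weights gave was 0.157 for library 30-5 and 0.663 for 28-1. Quantile normalization and pseudocounts of 0.1 and 1 kept all 3 counts within 1.5 times. The 4 named genes kept their direction in all 21 alternatives. The call of ENSRNOG00000017679 was lost in 4 of them, and its departure in 5 of 20; that of ENSRNOG00000002916 from the later ages was lost in 3 of 20, with libraries averaged (limma adjusted p = 0.475), without 29-4 (0.0679) and without 26-1 (0.0572). Depth is known only as a ratio, so counting error per gene could not be given.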
